A study of Macaca mulatta with 24 samples.

Results

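The mitochondrial ribosomal protein genes were the gene symbols that begin with MRPL or MRPS followed by a digit, and 75 of the 17208 symbols measured in the nucleus accumbens core (NAcc) of rhesus macaques met that rule. Of the 75 genes, 48 encode proteins of the large subunit and 26 proteins of the small subunit, MRPS30 and MRPS18A being counted with the large subunit in spite of their names. The remaining gene, MRPS36, codes for a protein now known as a part of the 2-oxoglutarate dehydrogenase complex and not of the ribosome. RNA-Seq had been run once on the NAcc core, a part of the ventral striatum, of each of 24 unrelated adult male animals. Controls (n = 8) worked the same drinking panels for water and received maltose dextrin, low or binge drinkers (LD*, n = 8) and heavy or very heavy drinkers (HD*, n = 8) had free daily access to ethanol for about a year, and tissue was taken with no abstinence set before it. Drinking had been induced in all of them, controls included, by scheduled feeding. HD* held 4 heavy (HD) and 4 very heavy (VHD) drinkers. Intake ran from 0.47 to 2.07 g/kg in LD*, from 2.74 to 3.09 g/kg in HD and from 3.09 to 3.78 g/kg in VHD animals. The animals chose their own intake, so drinking category was observed and not assigned, and they came from cohorts 4, 5, 7a and 7b.

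Mitochondria keep their own ribosome, which translates the few messages of mitochondrial DNA into membrane subunits of the respiratory chain and ATP synthase. Its proteins are all encoded in the nucleus, made on cytosolic ribosomes and imported. A part of them have counterparts in the bacterial ribosome, and the others were acquired in mitochondria. Striatal neurons depend heavily on oxidative phosphorylation, and glial cells carry mitochondrial ribosomes as well.

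Values were in TPM, the abundance of a transcript as a share of its library's total after scaling by gene length, so levels of different genes can be set side by side on the TPM scale. Each library summed to between 999998 and 1000000, which leaves the depth of each library unknown. Tests were made with limma on log2(TPM + 1). A gene entered when it averaged 10 TPM or more, as 9197 did, 72 of the 75 genes of the family among them. Fold changes on this scale understate those of low genes. Markers of striatal neurons were found in every library, none of the 9 being at 0 in any group, but their summed level in the NAcc of Control replicate 6 was 733 TPM, against 2548 TPM or more in the other 23 animals. HD* replicate 8, a VHD animal, held the lowest value of the 24 animals for 43.9% of all genes tested and for 22 of the 72 family genes. Fewer cells of a type and less RNA per cell cannot be told apart in such tissue.

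The family was expressed in all 24 animals and took between 0.669% and 0.835% of the total. Its median gene had a mean of 84.4 TPM, against 37.5 TPM for the 9197 genes tested. The highest levels belonged to MRPS21, the counterpart of bacterial protein S21, with a mean of 453 TPM, followed by MRPL23, a protein near the exit of the peptide tunnel, with 289 TPM. MRPL27, which lies near the peptidyl transferase centre, had a mean of 270 TPM, MRPL51 had 255 TPM and MRPS34 had 208 TPM. The large subunit had a median of 86.4 TPM and the small subunit one of 80.4 TPM, so the 2 subunits were at a like level. Genes with a bacterial counterpart had medians of 81.8 TPM (large subunit, n = 30) and 77.5 TPM (small subunit, n = 16), and mitochondria-specific genes had medians of 93.8 TPM (n = 18) and 101 TPM (n = 10). MRPL42 at 21.8 TPM and MRPL22 at 13.3 TPM were the lowest genes tested. MRPL19, with a mean of 6.19 TPM, and MRPS24, with 2.91 TPM, fell under the minimum. MRPL20 was listed at 0 in 11 animals and reached at most 0.529 TPM in the other 13, a level at which no comparison was made. Among the 72 genes the coefficient of variation over the 24 animals had a median of 13.5%, with MRPL24 the steadiest at 6.0% and MRPL33 the most variable at 26.6%. The paralogs MRPS18A, MRPS18B and MRPS18C had means of 97.2, 121 and 121 TPM, from reads that aligned to a single place. Their split between the 3 genes was not checked here.

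The first question was whether the family differed between HD* animals and controls. No family gene was called, which does not show that none differed. The authors reported genes that differed in this contrast with models of read counts, so the absence of calls holds for the fit used here. At an adjusted p under 0.05 limma called 0 of the 72 genes, as it called 0.0% of all 9197, and 0 of the 72 had an unadjusted p under 0.05, whereas 3.88% of all genes did. The median log2 fold change of the family was 0.04, with 43 genes above 0 and 29 below, while the median over all genes was -0.10. Of the 28 genes that averaged 100 TPM or more, 23 lay above 0, with a median of 0.08, and 0 were called. When libraries were rescaled by TMM, which trims extreme genes, the median of all genes moved to 0.03 and that of the family to 0.17, and 12 of the 72 then had an unadjusted p under 0.05, all higher in HD*, where 2.94% of all genes did, with 0 at an adjusted p under 0.05. The family lay above the median of all genes in both scalings. Without Control replicate 6, 2 of the 72 genes had an unadjusted p under 0.05 and 0 an adjusted one. The share of all genes in that fit is not given here. The 9 striatal neuron markers had a median log2 fold change of 0.42 and the 9 oligodendrocyte markers one of -0.37 in the same comparison, 0 of either list being called. Both medians include Control replicate 6. Its mean centred log2(TPM + 1) was -3.22 for the striatal markers, where the other controls lay between -1.03 and 0.99. For the oligodendrocyte markers it was 1.63, where the others lay between -0.38 and 0.89. The medians without this animal were not computed. The part of these markers in the family's values was not tested.

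The member with the smallest p was MRPL34. Its levels in controls ran from 167 TPM, with a median of 188 TPM, to 208 TPM, and in HD* animals from 189 TPM, with a median of 203 TPM, to 242 TPM. The ranges overlapped and the log2 fold change was 0.13 ± 0.07 (SE, limma adjusted p = 0.806). MRPL14, a protein at the interface of the subunits, stood at 82.9 ± 10.9 TPM in the controls and at 99.0 ± 18.1 TPM in HD* (mean ± SD of 8 animals), with overlapping ranges. MRPL23 had 270 ± 42.2 and 324 ± 79.7 TPM. MRPS12, the decoding-centre protein whose bacterial counterpart binds streptomycin, had 115 ± 9.21 and 127 ± 13.6 TPM. MRPS25, MRPS18A and MRPL27 also had positive fold changes, of 0.14, 0.09 and 0.13. In the other direction MRPS22 averaged 57.2 ± 10.7 TPM in the control group and 48.0 ± 8.99 TPM in HD*, without a call. MRPL3, a core protein of the large subunit, had 26.2 ± 3.25 and 22.9 ± 6.59 TPM, its lowest value of 11.1 TPM being that of HD* replicate 8. For MRPL18, MRPS10 and MRPL42 the control means were 81.0, 35.5 and 22.9 TPM and the HD* means 75.5, 32.5 and 20.9 TPM. The fold change of MRPL18 was -0.11, and 0.02 under TMM. The adjusted p was 0.806 for each of these 12 genes.

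**Figure D1:**
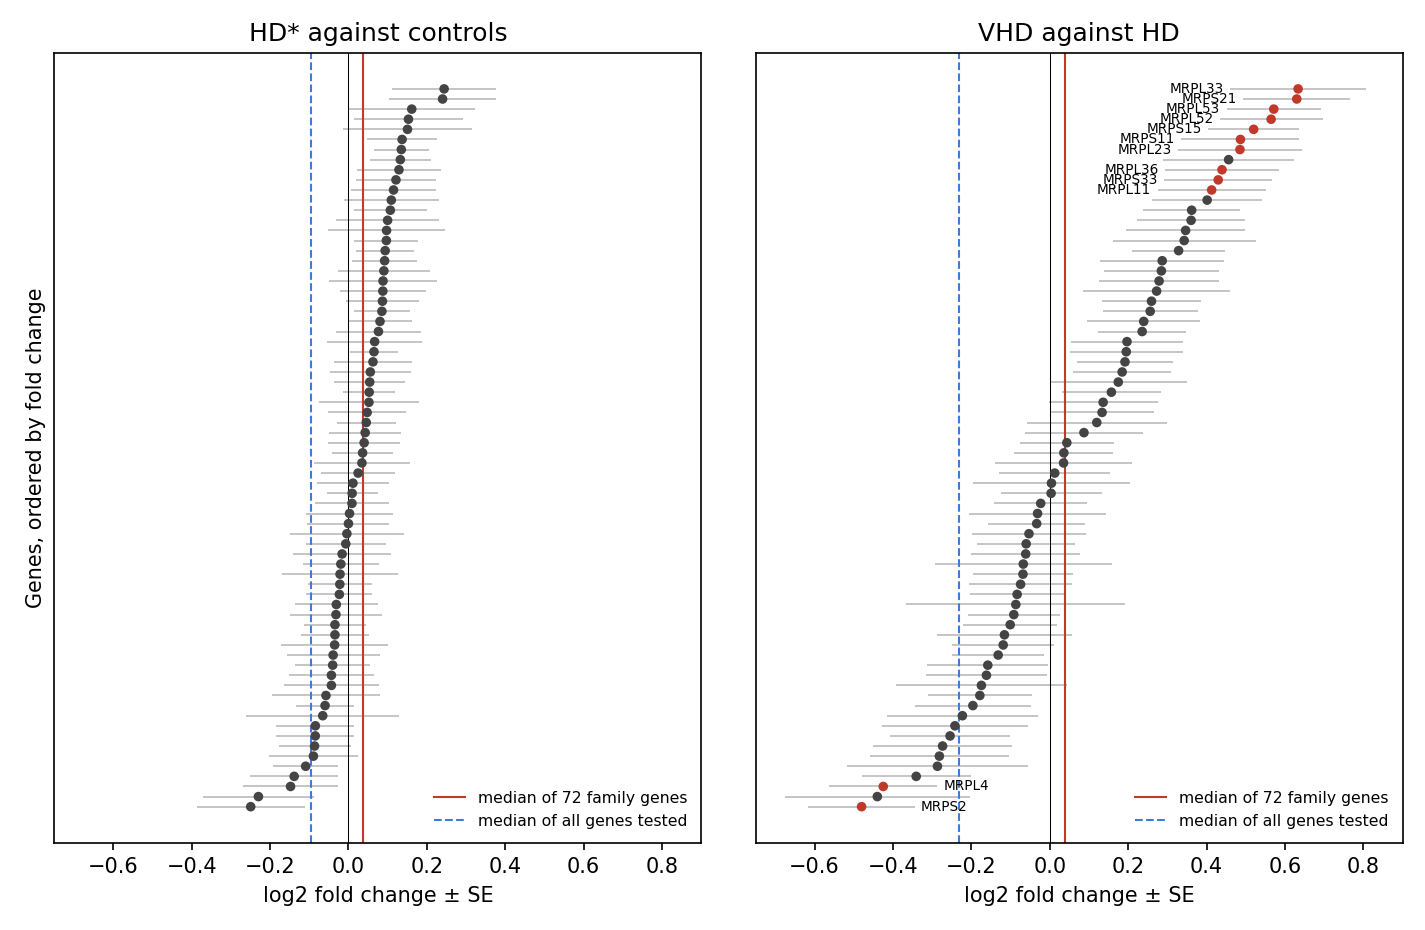
Log2 fold changes with standard errors (x axis) of the 72 mitochondrial ribosomal protein genes tested, each panel sorted by its own values, for HD* against controls and VHD against HD. Red points passed an adjusted p of 0.05 (limma) and are named, the red line is the median of the 72 genes (0.04 in both panels) and the blue dashed line the median of all 9197 genes (-0.10 and -0.23).

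No call was made among the 72 genes for LD* animals against controls, nor for HD* against LD*. For LD* against controls 0 genes were called at an adjusted p under 0.05, where 0.0% of all genes were, and 0 had an unadjusted p under 0.05, where 1.78% of all genes had. MRPS18A and MRPS16 had the smallest p values among genes above 0, with 92.6 and 97.4 TPM in controls and 101 and 105 TPM in LD*. MRPL41 had 147 ± 29.7 TPM in controls and 125 ± 24.9 TPM in LD*, and MRPS30 had 34.6 ± 9.91 and 40.8 ± 7.66 TPM (adjusted p = 1.000 for each of the 4). For HD* against LD* the counts were again 0, with 0.0% of all genes at an adjusted and 0.728% at an unadjusted p under 0.05. MRPL28 had 112 ± 6.90 TPM in LD* and 126 ± 11.2 TPM in HD* (adjusted p = 0.914), and MRPL2 had 111 ± 15.4 and 98.2 ± 11.3 TPM. The 3 comparisons share their groups, and their family medians were 0.04, 0.01 and 0.00.

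The mean over the 75 genes of centred log2(TPM + 1), a score with 1 value per animal, moved little with drinking group when libraries were not rescaled. The difference of HD* from controls was then 0.02, and under TMM it was 0.15. Controls averaged -0.01 ± 0.05, LD* animals 0.00 ± 0.04 and HD* animals 0.01 ± 0.09 (SD, n = 8 in each group). The lowest and highest of the 24 scores both came from VHD animals, -0.13 in HD* replicate 8 and 0.15 in HD* replicate 4. The score of 84 cytosolic ribosomal protein genes, paralogs included, ran from -0.40 to 0.72 over the same animals. Over the 24 animals the family score had r = 0.35 and rho = 0.51 with the cytosolic score, given as a description since both come from the same libraries. In the 16 drinkers its r with intake was 0.17 and its rho 0.19. Without the 2 animals farthest from the median intake r was 0.05. Within LD* animals r was 0.37 and rho 0.62, within HD* animals r was 0.31 and rho 0.19, and within the 7 drinkers of cohort 7a r was -0.46. The summed TPM of the family, which weights the abundant genes most, averaged 7286 ± 490 for controls, 7348 ± 381 for LD* and 7621 ± 537 for HD*. Its r with intake in the 16 drinkers was 0.47 and its rho 0.51, with r = 0.39 without the 2 farthest animals and r = 0.32 within the drinkers of cohort 7a. These relations are descriptions, with no test.

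**Figure D2:**
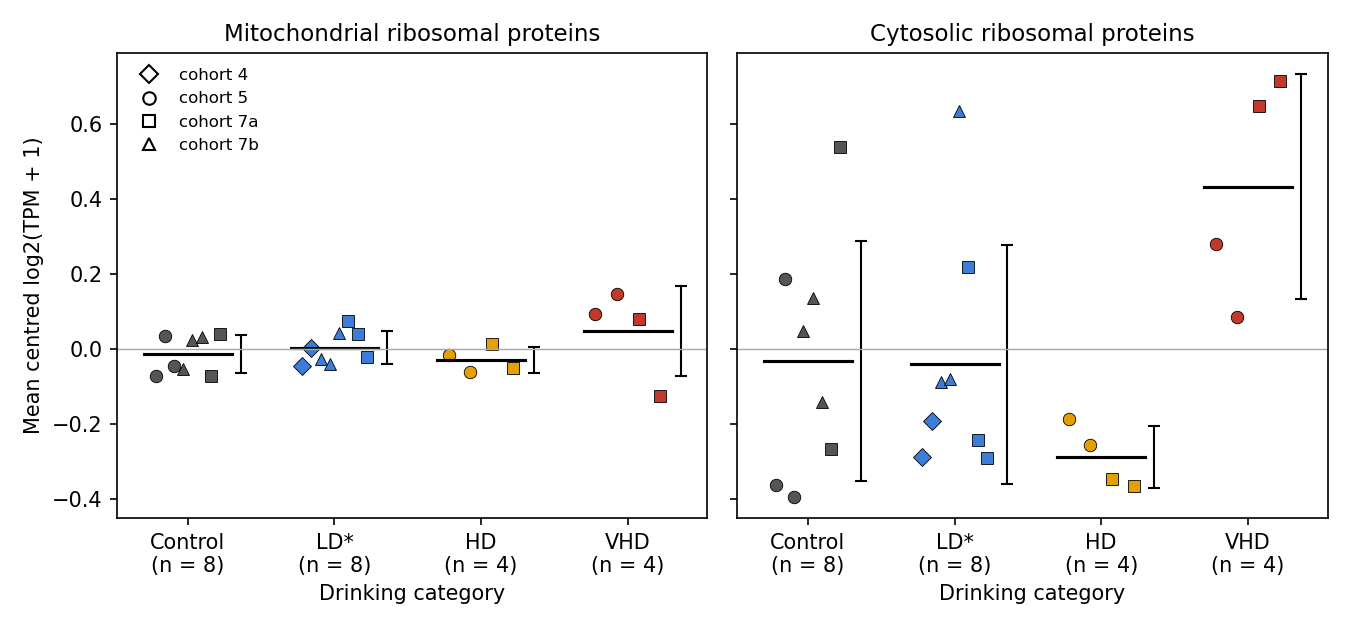
Mean centred log2(TPM + 1) per animal (y axis, same scale in both panels) of the 75 mitochondrial and the 84 cytosolic ribosomal protein genes, by drinking category (x axis), with marker shape for cohort, a line for the mean and a bar for the SD. The mitochondrial scores lie between -0.13 and 0.15, while the cytosolic scores of the 4 HD animals lie below 0 and those of the 4 VHD animals above 0.

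Single genes were then fitted against intake in the 16 drinkers. None passed an adjusted p of 0.05, as 0.0% of all genes did. At an unadjusted p under 0.05, 4 family genes had a positive slope, where 1.45% of all genes did, and 1 a negative slope, where 5.41% did, which together is 5 of 72 against 6.86% of all genes. MRPL41 had a slope of 0.18 ± 0.06 log2 units per g/kg, MRPL23 one of 0.20 ± 0.07, MRPS21 one of 0.20 ± 0.08 and MRPS30 one of -0.24 ± 0.09 (SE, limma adjusted p = 0.457 for each). MRPL27 was the remaining one, with 0.13 ± 0.06. With cohort as a covariate 7 genes had a positive and 7 a negative slope at that p, where 3.06% and 31.2% of all genes did, still with 0 at an adjusted p under 0.05.

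Cohort, tested with group held in the model, gave 0 family genes and 0.0% of all genes at an adjusted p under 0.05. At an unadjusted p under 0.05 it gave 5 family genes, all of the large subunit, where 8.32% of all genes passed. MRPL41 had 106 TPM on average in cohort 4 (n = 2), 126 ± 21.8 TPM in cohort 5 (n = 7), 144 ± 22.8 TPM in cohort 7a (n = 9) and 155 ± 26.9 TPM in cohort 7b (n = 6). MRPS30 had means of 46.8, 39.5, 33.7 and 31.9 TPM in the same order, and MRPL42 had 21.2, 24.9, 19.9 and 21.2 TPM. MRPL44, whose fold resembles that of RNase III, had 34.9, 33.7, 26.6 and 30.5 TPM. Its value of 15.9 TPM in HD* replicate 8 was the lowest of cohort 7a. HD* animals and controls occur together in cohorts 5 and 7a alone, and no difference of the HD* effect between these cohorts was called among the 72 genes (0 at an adjusted p under 0.05 as in 0.0% of all genes, and 0 at an unadjusted p under 0.05, where 1.83% of all genes passed). The differences with the smallest p were -0.39 ± 0.27 for MRPL41, -0.33 ± 0.26 for MRPS36, -0.44 ± 0.36 for MRPS6 and -0.32 ± 0.27 for MRPL50 on the log2 scale, each with an adjusted p of 1.000.

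Within the HD* group, VHD animals were compared with HD animals, and here 12 of the 72 genes differed. At an adjusted p under 0.05, 10 genes were higher in VHD animals, MRPL53, MRPS21, MRPS15, MRPL52, MRPL33, MRPS11, MRPS33, MRPL23, MRPL36 and MRPL11. That is 13.9% of the family, where 4.78% of all genes were higher. MRPS2 and MRPL4 were lower, 2.78% of the family, where 19.0% of all genes were lower. The median log2 fold change was 0.04 over the 72 genes, with 41 above 0 and 31 below, and -0.23 over all genes. Every VHD animal lay above every HD animal in 14 of the 72 genes, where 6.03% of all genes were so placed, and every VHD animal lay below in 2, where 23.0% of all genes did. The calls came from both subunits, 6 higher and 1 lower of 46 in the large and 4 higher and 1 lower of 25 in the small. Mitochondria-specific genes gave 2 higher calls of 18 in the large and 1 of 10 in the small subunit, and the other calls came from genes with a bacterial counterpart. Under TMM, with a median over all genes of -0.04, 22 genes were higher, where 10.6% of all genes were, and 0 lower, where 15.6% of all genes were, so the lower call of MRPS2 (log2 fold change -0.28, adjusted p = 0.241) and of MRPL4 (-0.22, adjusted p = 0.394) did not hold in that scaling, nor did the higher call of MRPL23 (0.69, adjusted p = 0.0710). With genes down to a mean of 1 TPM in the fit, 6 of the 12 were called, 5 higher where 3.23% of all genes were and 1 lower where 11.4% were.

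MRPL53, a mitochondria-specific protein of the large subunit, had the smallest p. It stood at 224, 220, 262 and 274 TPM in the VHD animals and at 166, 166, 159 and 165 TPM in the HD animals. The groups did not overlap, and the HD animals were nearly alike. The log2 fold change was 0.57 ± 0.12 (SE, limma adjusted p = 0.00919). MRPS21 was at 518, 531, 663 and 717 TPM in VHD and at 408, 376, 379 and 391 TPM in HD animals, a log2 fold change of 0.63 ± 0.14 (adjusted p = 0.0101) or 1.55-fold. Its 2 highest values were those of the VHD animals of cohort 7a. MRPS15, a small-subunit protein that binds ribosomal RNA early in bacterial assembly, was at 191, 193, 227 and 211 TPM against 150, 136, 143 and 142 TPM (0.52 ± 0.12, adjusted p = 0.0110). MRPL52, a mitochondria-specific protein, was at 103, 110, 112 and 129 TPM against 77.5, 69.4, 87.7 and 72.0 TPM (0.56 ± 0.13, adjusted p = 0.0131). For both genes each VHD animal exceeded each HD animal.

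MRPL33, a small protein of the large subunit, had the largest fold change of the 12. Its values were 41.1, 32.8, 52.5 and 36.2 TPM in VHD and 23.0, 24.8, 29.9 and 24.5 TPM in HD animals (0.63 ± 0.17, adjusted p = 0.0242). MRPS11, a protein of the small subunit's platform, was at 81.4, 77.6, 107 and 67.3 TPM against 58.8, 57.3, 57.6 and 59.5 TPM (0.49 ± 0.15, adjusted p = 0.0374). In both genes HD* replicate 6 was the highest of the 4 VHD animals, and neither gene's groups overlapped. MRPS33 had 212 ± 15.6 TPM in VHD and 158 ± 23.9 TPM in HD animals, MRPL36 had 114 ± 19.5 and 82.6 ± 4.11 TPM, and again the groups did not overlap. MRPL23 and MRPL11 did overlap. MRPL23 had 380 ± 76.9 TPM in VHD, where HD* replicate 4 was at 278 TPM, and 267 ± 20.8 TPM in HD animals. MRPL11, at the base of the stalk where translation factors bind, had 104 ± 9.87 and 78.4 ± 10.5 TPM. The adjusted p of MRPS33, MRPL36, MRPL23 and MRPL11 lay between 0.0419 and 0.0486.

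The 2 genes that were lower without rescaling were MRPS2, a protein between the head and body of the small subunit, and MRPL4, whose bacterial counterpart lines the peptide tunnel. MRPS2 was at 65.5, 58.8, 56.2 and 62.5 TPM in VHD and at 72.8, 85.2, 100 and 83.8 TPM in HD animals (-0.48 ± 0.14, adjusted p = 0.0270). MRPL4 was at 50.9, 44.2, 45.2 and 54.9 TPM against 57.7, 64.4, 72.5 and 68.7 TPM (-0.42 ± 0.14, adjusted p = 0.0433). Neither pair of groups overlapped. MRPL4 and MRPS2 were also the members that followed the rest of the family least over the 24 animals, with r = -0.54 and -0.45 to the mean of the other genes, followed by MRPL24 (r = -0.39) and MRPL37 (r = -0.36).

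**Figure D3:**
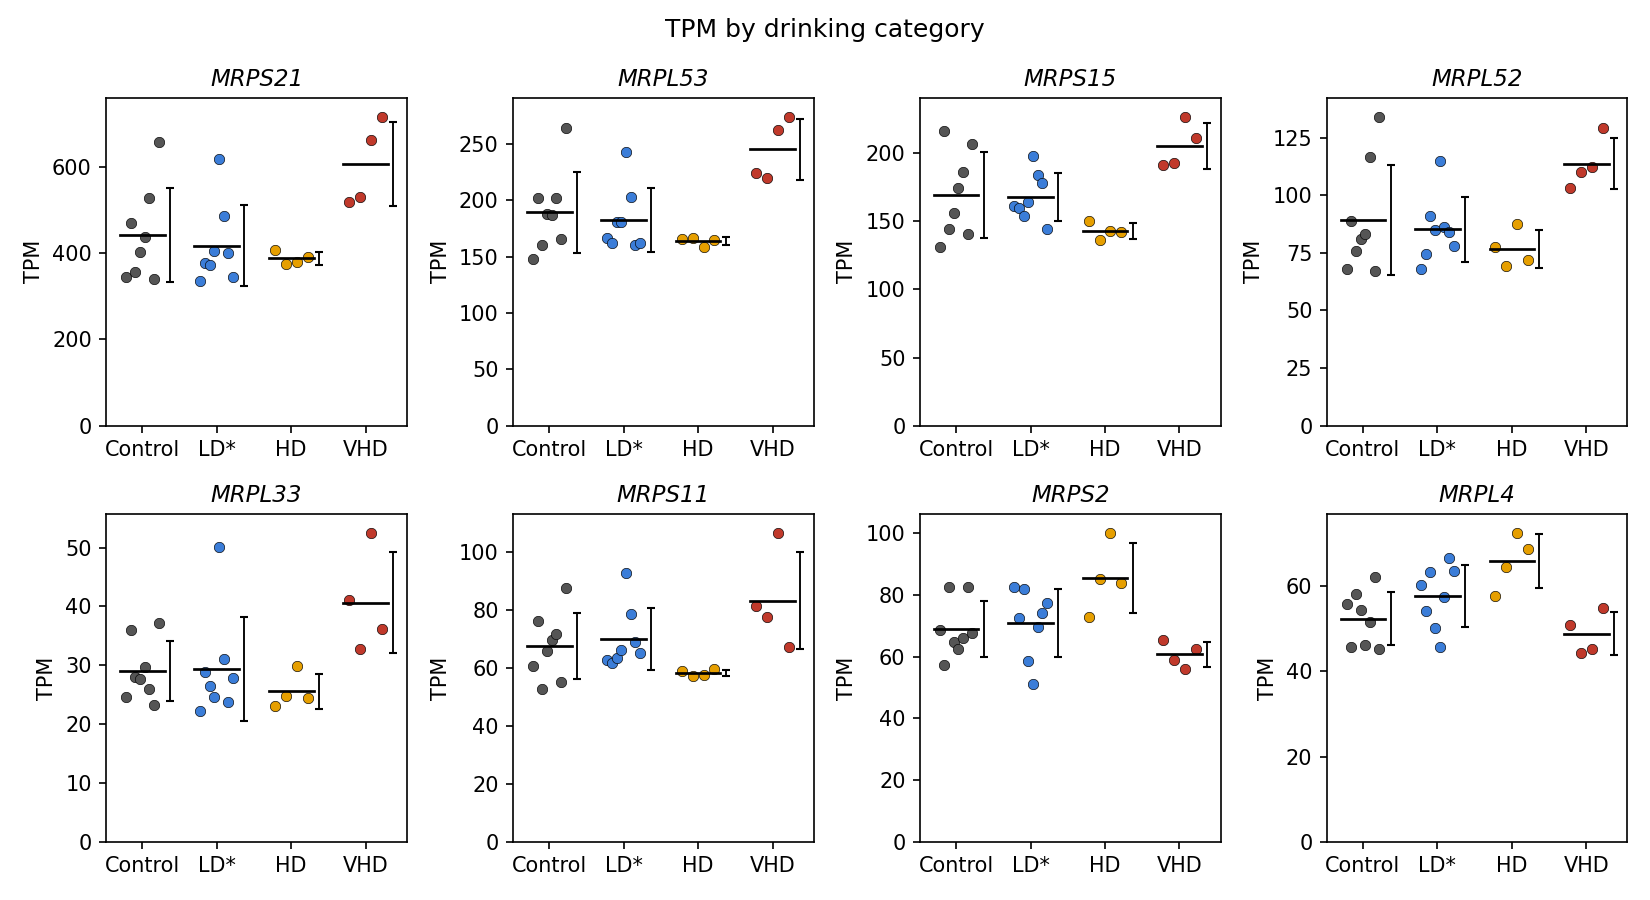
TPM (y axis, from 0) of 8 mitochondrial ribosomal protein genes in each animal by drinking category, with a line for the mean and a bar for the SD (n = 8, 8, 4 and 4). The 4 VHD animals lie above the 4 HD animals in the first 6 genes and below them in MRPS2 and MRPL4, and some controls and LD* animals reach VHD levels, such as 658 TPM of MRPS21 in Control replicate 8.

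The levels of the lower VHD animals were reached by some control and LD* animals, while the highest VHD animal lay above all of these in some genes, such as MRPL23 with 448 against at most 357 TPM and MRPS21 with 717 against at most 658 TPM. Control replicate 8 had 658 TPM of MRPS21, 264 TPM of MRPL53 and 134 TPM of MRPL52, and LD* replicate 5 had 618, 243 and 115 TPM of these genes. The intake of LD* replicate 5, 2.07 g/kg, was the highest in LD*. In controls MRPS21 ran from 340 TPM, with a median of 421 TPM, to 658 TPM, and in LD* animals from 336 TPM, with a median of 389 TPM, to 618 TPM. Over the 10 genes that were higher in VHD, between 2 and 11 of the 16 control and LD* animals were at or above the lowest VHD animal. MRPL53 had 2 such animals and MRPL36 had 11. The summed TPM of the family was 8092 ± 221 in VHD and 7151 ± 184 in HD animals (n = 4 each, with no overlap), a difference of 942 TPM of which the 10 genes made up 70.5% and MRPS21 alone 23.3%. The family score differed less, with 0.05 ± 0.12 in VHD and -0.03 ± 0.03 in HD animals, a difference of 0.08 that was 0.13 without HD* replicate 8 and 0.04 without HD* replicate 4. HD* replicate 8 combined the highest MRPS21 and MRPL53 of all animals with the lowest MRPL3, MRPL44, MRPS30, MRPS10 and MRPL30.

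Within cohorts, each with 2 VHD and 2 HD animals, the 12 genes were fitted again. In cohort 7a alone 8 of the 12 passed an adjusted p of 0.05, and in cohort 5 alone 0 did. The 12 had been chosen in a fit that held these same animals, so passing again is no independent support. Over all 72 genes cohort 7a alone gave 8 higher and 3 lower, where 5.45% of all genes were higher and 34.1% lower. Cohort 5 alone gave 0 of the 72, where 1 of all 9197 genes was called. MRPS21 differed by 0.42 ± 0.15 in cohort 5 and by 0.84 ± 0.12 in cohort 7a on the log2 scale, and the difference between these effects was 0.42 ± 0.17 (limma adjusted p = 0.214). Over the 72 genes that difference passed an unadjusted p of 0.05 in 7, where 21.9% of all genes did, and an adjusted p in 0, as in 0.0% of all genes. Leaving out 1 animal at a time gave between 3 calls, without HD* replicate 3, and 16, without HD* replicate 4. It gave 4 without HD* replicate 6 or 7, 5 without HD* replicate 5 and 7 without HD* replicate 2. There were 9 without HD* replicate 1 and 13 without HD* replicate 8. The share of all genes called in these fits is not given here, so the counts cannot be set beside it. MRPL53, MRPS21 and MRPS15 were called in all 8 of these fits, and MRPL52 lost its call in 1. MRPL33 and MRPS2 lost their call in 4 of the 8, and MRPS33 in 5. MRPL11, MRPL36, MRPL4 and MRPS11 lost it in 6, and MRPL23 in 7.

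Other transcripts moved with the same split of animals. Of 78 cytosolic ribosomal protein genes tested, 73 were higher and 0 lower in VHD animals, with a median log2 fold change of 0.80. Of the 9 striatal neuron markers 8 were lower, their summed level being 3189 to 5920 TPM in VHD and 8617 to 10193 TPM in HD animals. Of 7 microglia markers tested 4 were higher, with 437 to 746 TPM of the 8 measured ones in VHD against 335 to 429 TPM in HD animals. Of 7 astrocyte markers 1, GFAP, was higher (4300 to 7092 TPM summed against 2109 to 3681 TPM), of 9 oligodendrocyte markers 1, MBP (2477 to 5244 against 2526 to 4324 TPM), and of 4 endothelial and mural markers 0 (133 to 181 against 151 to 179 TPM of 8 measured). The oligodendrocyte markers were split, 4 above 0 and 5 below with a median log2 fold change of -0.09. MAG had -0.76 ± 0.26 (limma adjusted p = 0.0527). No marker was at 0 throughout a group. Over the 24 animals the family score had r = -0.42 with the striatal neuron score and 0.52 with the astrocyte score. The part of cell composition in the 12 calls was not tested.

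The 16 control and LD* animals, which took no part in the comparison of VHD with HD, were used to see how each gene varied with the cytosolic ribosomal protein score. Of the 72 genes, 24 were positively correlated with that score at an adjusted p under 0.05 (permutation test of Pearson's r, two-sided, 100000 permutations, Benjamini-Hochberg over all 9197 genes), where 9.93% of all genes were, and 11 negatively, where 41.0% of all genes were. The median r was 0.22 over the 75 genes and -0.42 over the 9197. MRPL53 had r = 0.94 (permutation p = 1e-05, the smallest these permutations can give, adjusted p = 0.000147) and rho = 0.92 (permutation p = 1e-05). MRPS11 had r = 0.91 and rho = 0.87, and MRPS21 had r = 0.89 and rho = 0.86. Without the 2 animals farthest from the median score, Control replicate 8 and LD* replicate 5, r was 0.86, 0.79 and 0.74 for these genes. With each cohort centred on its mean it was 0.92, 0.90 and 0.87, and in the 6 animals of cohort 7b alone it was 0.84, 0.89 and 0.69. All values come from the same libraries, and both sides are shares of 1 total.

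Of the 12 genes called in VHD against HD, 11 were also correlated with the cytosolic score in these 16 animals, in the direction of their VHD difference, and MRPL11 was not (r = 0.52, permutation p = 0.0410, adjusted p = 0.0744). Such a correlation was common, at 9.93% positive and 41.0% negative over all 9197 genes. The share among all genes called in VHD against HD was not computed. For MRPS33 and MRPL52 r fell to 0.36 and 0.47 without the 2 farthest animals. MRPS2 had r = -0.71 and MRPL4 r = -0.73, but under TMM they had -0.16 and -0.14, and with that scaling 41 of the 72 genes were positively correlated, where 18.7% of all genes were, and 0 negatively, where 21.3% were. MRPL32, MRPS14, MRPL47 and MRPS36 had r of 0.88, 0.84, 0.84 and 0.83, and none of them passed in VHD against HD. MRPS5, with the lowest r of -0.81, kept a negative r of -0.53 under TMM. Across the 72 genes r in the 16 animals and the log2 fold change of VHD against HD had a Spearman rho of 0.86. Over all 9197 genes it was 0.85, so the relation was not particular to the family. Genes are not independent replicates, and no test is given.

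**Figure D4:**
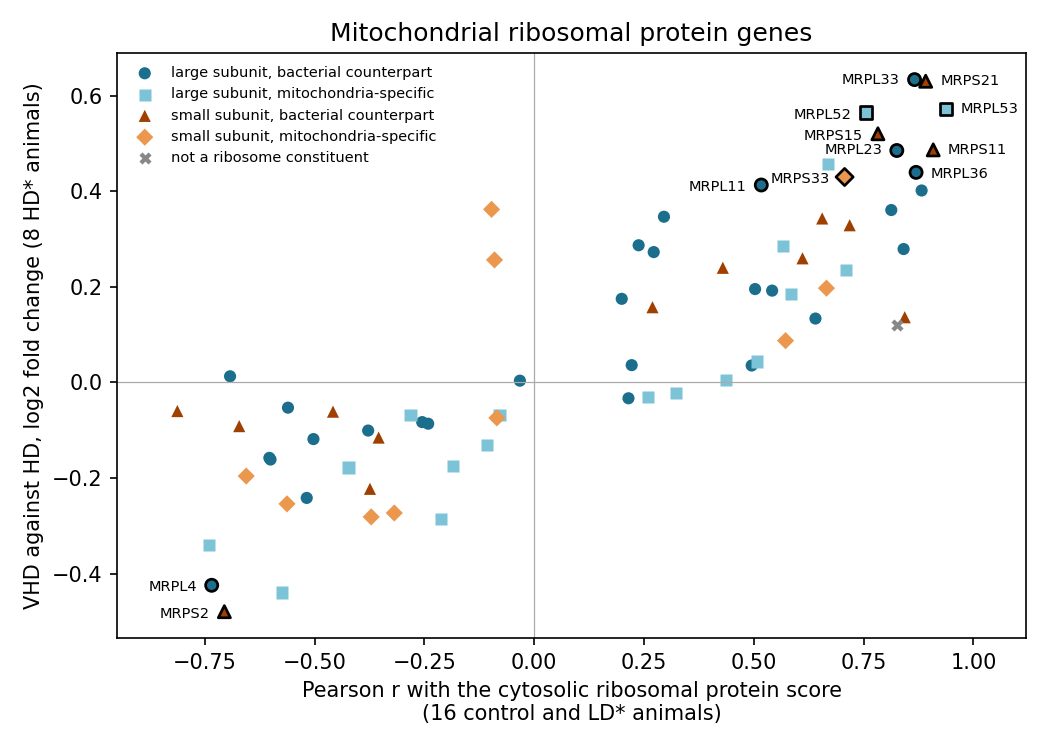
For each of the 72 genes, Pearson r with the cytosolic ribosomal protein score over 16 control and LD* animals (x axis) against the log2 fold change of VHD against HD in the 8 HD* animals (y axis). Marker shape and colour give subunit and origin, and the 12 genes with a black outline passed an adjusted p of 0.05 (limma). The 10 higher genes lie at r of 0.52 or more and MRPS2 and MRPL4 at about -0.7.

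Without rescaling of the libraries, the family did not vary as a unit. Among the 2775 pairs of its 75 genes the median r over the 24 animals was 0.09, with 57.5% of pairs positive and a 5th to 95th percentile range from -0.56 to 0.70. Pairs of cytosolic ribosomal protein genes had a median r of 0.91. Of the 75 genes, 15 had a negative r with the mean of the others. These pairs were not computed under TMM. In that scaling the 72 genes had a median r of 0.63 with the cytosolic score in the 16 control and LD* animals. The heat map of all animals shows a block of genes at the bottom, MRPL53, MRPS11, MRPS21, MRPL32, MRPL36 and MRPL33 among them, that was high in Control replicate 8, LD* replicate 5 and HD* replicate 6, animals of different categories with a high cytosolic score. HD* replicate 8, with the highest cytosolic score, was high in MRPL53, MRPS21 and MRPL33 but below the mean of the 24 animals in MRPS11, MRPL32 and MRPL36.

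**Figure D5:**
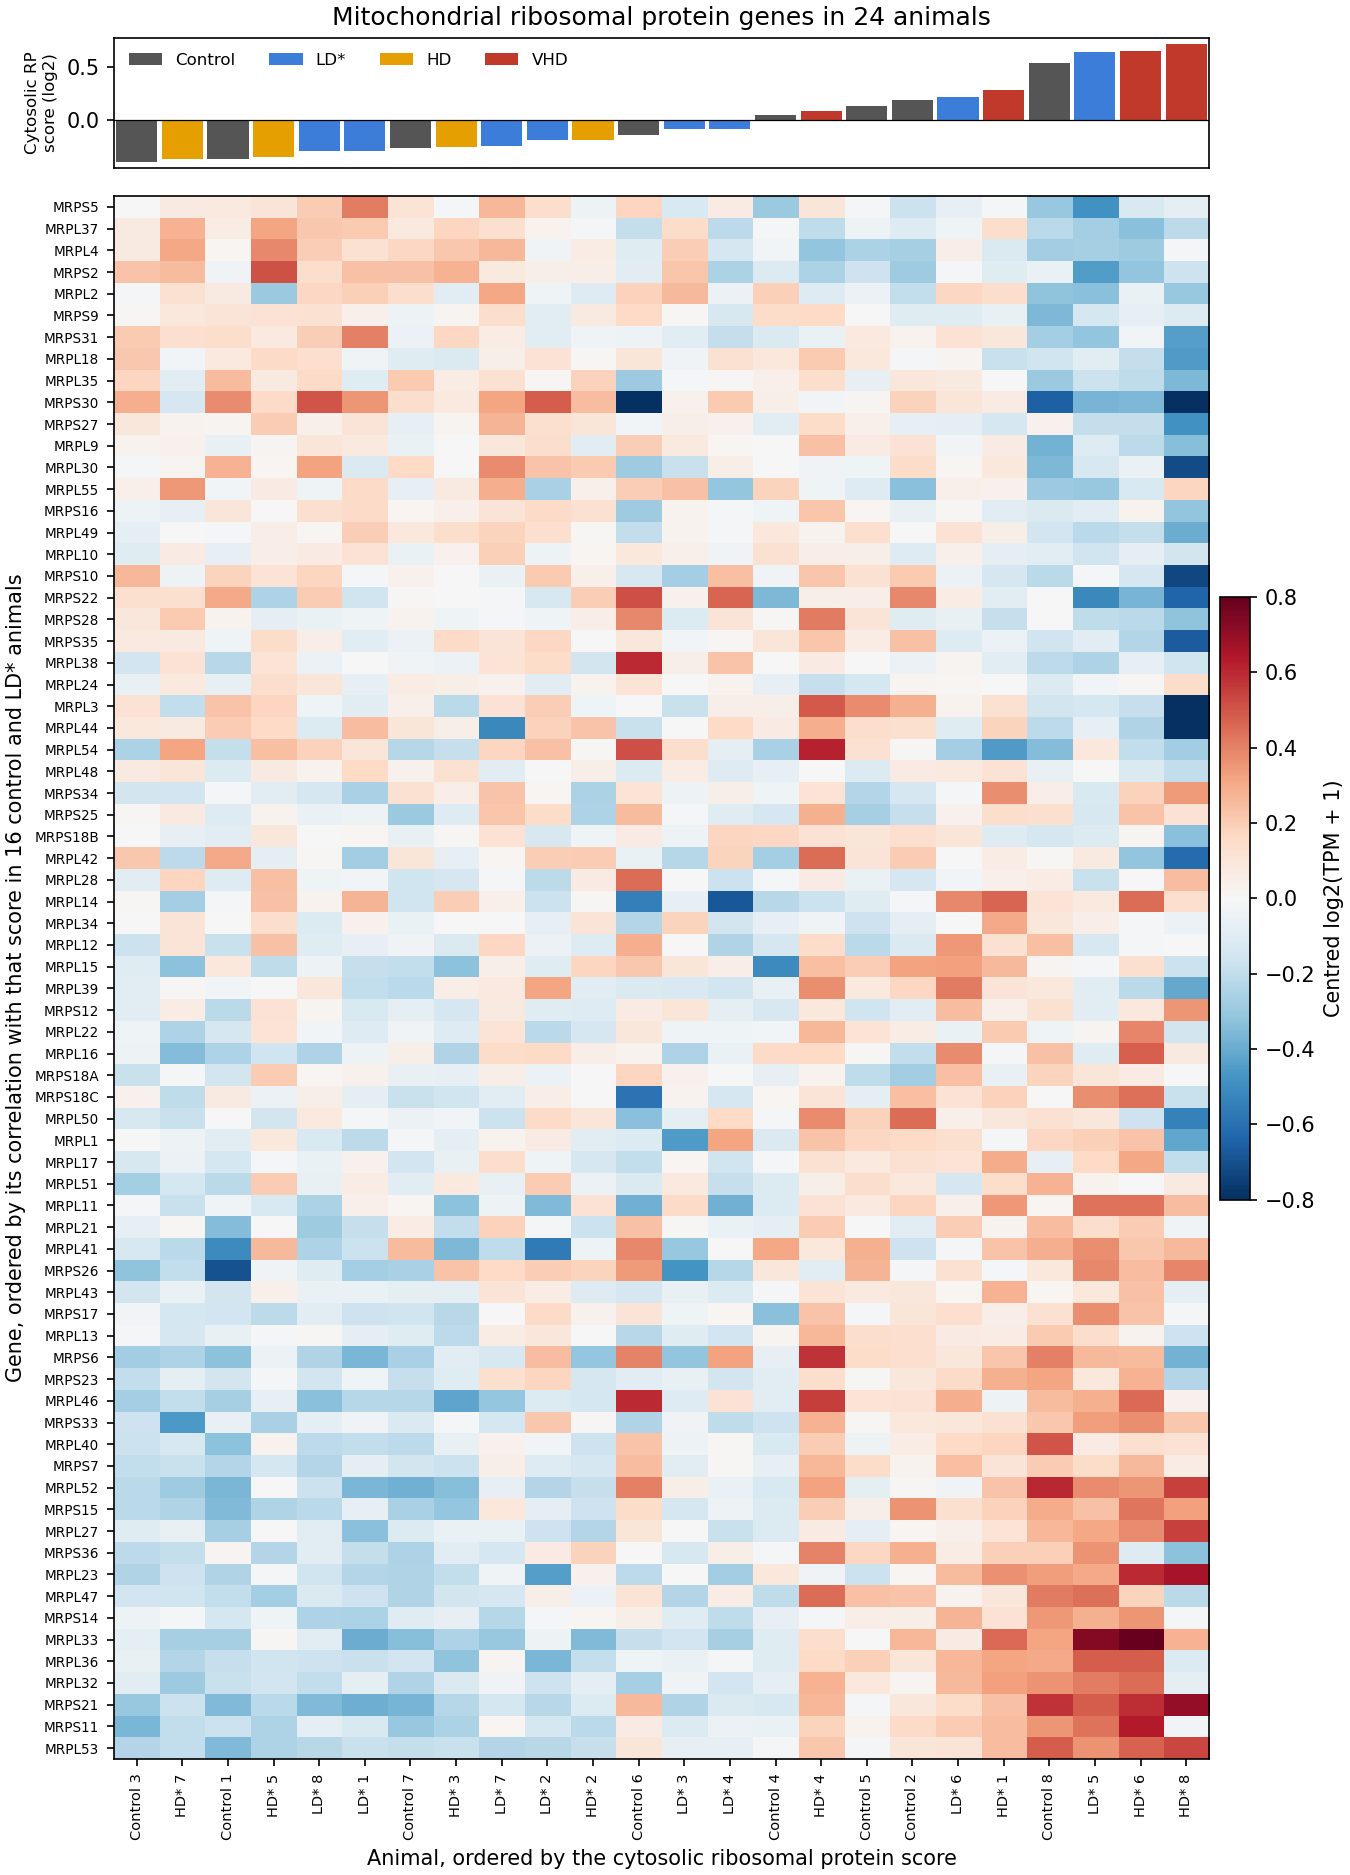
Centred log2(TPM + 1) (colour) of the 72 genes (rows, ordered by r with the cytosolic ribosomal protein score in 16 control and LD* animals) in 24 animals (columns, ordered by that score, which the bars at the top show in log2 units coloured by drinking category). Control replicate 8, LD* replicate 5 and HD* replicates 6 and 8 have scores of 0.54, 0.63, 0.65 and 0.72 and the first 3 share high levels in the lowest rows, while HD* replicate 8 does so in part of them.

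Other genes of mitochondrial translation were examined from lists of known function. Of the 6 mitoribosome proteins with other symbols, 1 was higher in VHD than HD animals, CHCHD1 (0.43 ± 0.14, adjusted p = 0.0482), 0 were lower, and DAP3 had -0.32 ± 0.15 (adjusted p = 0.124). Of 13 translation factors tested 1 was higher and 1 lower, SLIRP, a partner of LRPPRC in stabilising mitochondrial messages (0.74 ± 0.15, adjusted p = 0.00782), and TSFM, an elongation factor (-0.50 ± 0.17, adjusted p = 0.0487). Of 17 assembly and rRNA modification factors 1 was lower, the helicase DHX30 (-0.56 ± 0.14, adjusted p = 0.0153), 0 were higher, and RNMTL1 had -0.40 ± 0.16 (adjusted p = 0.0806). Of 13 mitochondrial aminoacyl-tRNA synthetases and 5 genes of mitochondrial DNA transcription and maintenance, 0 passed, and at an unadjusted p under 0.05 also 0. Their medians were -0.20 for both lists, -0.20 for the translation factors, -0.18 for the assembly factors and 0.04 for the 6 ribosomal proteins, beside -0.23 over all genes. In HD* against controls 0 genes of these 5 lists passed, and 1, AURKAIP1, had an unadjusted p under 0.05. AURKAIP1 and PTCD3, both of the small subunit, had -0.30 ± 0.13 and -0.19 ± 0.11, and MTIF2, the initiation factor, had -0.16 ± 0.09 (adjusted p = 0.806 for each).

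Among 9125 genes outside the family, those whose log2(TPM + 1) followed the family score most closely over the 24 animals were WDR61 (r = 0.87), ATP5C1, which encodes the gamma subunit of ATP synthase (0.87), KANSL2 (0.86), TBCA, a tubulin folding cofactor (0.84), and TIMMDC1, an assembly factor of complex I (0.83). CCDC90B, BNIP1, GTF2B, TMEM42 and TMEM230 followed with r between 0.78 and 0.80. The lowest were CTDNEP1 (-0.83), MARK4 (-0.79), TRAPPC9 (-0.74), UBXN6 (-0.73) and ABTB1 (-0.73). These are the extremes of a ranking over 24 animals and carry no test.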

How the data were processed

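PolyA-selected libraries were aligned by the authors with STAR 2.5.2b to the MacaM assembly, keeping unique alignments, and counted on genes with HTSeq 0.6.1p1. The values the authors deposited are TPM, and the gene lengths used are not given in the sources used here. All 24 columns were used, matched to animals by number. Members were found by symbol, and all 75 matched a symbol or synonym in the RefSeq annotation. The family and the gene lists were chosen with earlier results of these data known. From the TPM, log2(TPM + 1) was computed and limma 3.58.1 (R 4.3.3, empirical Bayes with trend) fitted to genes averaging 10 TPM or more, with 3 groups in 1 model, or with the 8 HD* animals, 16 drinkers, or cohort and group. Adjustment of p-values followed Benjamini and Hochberg over all genes tested. Scores and permutations used Python 3.11.15 and scipy 1.17.1. The genes named were those with the smallest p in each comparison (12 or 4), the 5 highest and 5 lowest, the 4 least like the family and the 3 MRPS18 paralogs. The 2 smallest p per list in HD* against controls and VHD against HD, and the genes nearest and farthest from the score, were taken likewise. Others, such as MRPL32, MRPS5 and MRPL44 in single animals, were named after their values were seen. The fit was tested on simulated data of 9197 genes, each drawn independently of the others with its own spread within categories. Genes of the real libraries varied together, so recovery there can differ. In VHD against HD the fit recovered 5 of 67 genes changed by 0.5, 38 of 67 by 1 and 60 of 66 by 2. For HD* against controls it recovered 36 of 67, 62 of 67 and 66 of 66, all changes being on the log2 scale. Alternatives were other pseudocounts, minimum levels, TMM rescaling, array weights, covariates and left-out animals. Splits of VHD against HD by cohort and the alternatives of the correlation were chosen after seeing the data.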

Additional observations from a re-analysis of the deposited data

Results flagged for a closer look

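Within groups of 8 or 4 animals, a value far from the nearest other animal was looked for in the named genes and the scores. Chance gives about 1 in 20 groups, and the 11 cases came from 215 groups. HD* replicate 8 accounted for MRPS12 at 155 TPM in HD*, where the others lay between 110 and 131 TPM, for the same gene among the VHD animals (155 TPM), and for MRPS10 at 20.1 TPM, where the other HD* animals lay between 30.7 and 39.7 TPM. LD* replicate 5 had 50.0 TPM of MRPL33, the others at most 31.1 TPM, and 62.5 TPM of MRPS36, the others at most 50.8 TPM. Control replicate 8 had 264 TPM of MRPL53, where the other controls lay between 148 and 202 TPM, and Control replicate 6, the animal low in striatal neuron markers, had 161 TPM of MRPL28, where the others lay between 106 and 123 TPM. HD* replicate 1 had 242 TPM of MRPL34, against 189 to 195 TPM in the other VHD animals. MRPL20, near 0 in every animal, stood out at 0.455 TPM in HD* replicate 2, among both HD* and HD animals, and at 0.177 TPM in HD* replicate 4 among VHD animals.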

How the results depend on the processing

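No paired analysis was made, since the animals were unrelated and each was sampled once, in 1 group. The depth of each library is not in the TPM values, so counting error is not given, and 4 animals against 4 leave small changes uncalled. Of the values of named genes under other settings, 310 kept direction and side of the threshold and 39 lost the call. The value that reversed, 1 in number, was that of MRPL18 in HD* against controls (0.023 under TMM). With 1 animal left out, 435 values were kept and 45 lost the call. Among the fitted comparisons only VHD against HD had calls to lose. The causes were not tested.

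Under TMM, the genes at an unadjusted p under 0.05 numbered 12 in HD* against controls, 2 in LD* against controls, 1 in HD* against LD*, 31 in VHD against HD and 8 for cohort. All 9197 genes gave 270 higher and 70 lower in HD* against controls, and 126 and 71 in LD* against controls. They gave 63 and 37 in HD* against LD*, and 1643 and 2178 in VHD against HD. The family's median was then 0.17 in HD* against controls, 0.088 in HD* against LD*, 0.24 in VHD against HD and 0.084 per g/kg of intake, and the score difference was 0.15, 0.092, 0.28 and 0.082. VHD against HD gave 22 adjusted calls, and the correlation gave 41 positive and 0 negative genes. Array weights gave 5, 6, 3 and 44 genes at an unadjusted p under 0.05 in HD* against controls, LD* against controls, HD* against LD* and VHD against HD. All 9197 genes gave 105 higher and 616 lower in HD* against controls, and 268 and 699 in LD* against controls. They gave 130 and 259 in HD* against LD*, and 1365 and 4874 in VHD against HD. Adjusted calls in VHD against HD numbered 41, 31 higher and 10 lower, where 1274 genes were higher and 4665 lower of all 9197. Without a minimum level there was 1 family gene at an unadjusted p under 0.05 in HD* against controls and 1 in HD* against LD*. With a minimum of 100 TPM there were 1 and 1, and VHD against HD had 11 and a median of 0.17. With cohort as a covariate there was 1 in LD* against controls, 4 in HD* against LD* and 14 for intake. Cohorts 5 and 7a alone gave 1 in HD* against controls, and a fit of only the compared groups gave 1 in HD* against LD*. In VHD against HD, a minimum of 1 TPM gave 6 adjusted calls. Leaving out both VHD animals of cohort 7a gave 7 and a median of 0.15, where 246 of all 9197 genes were higher and 633 lower. Cohort 5 alone gave 0, with 10 at an unadjusted p under 0.05 and a median of 0.19. At that unadjusted p, 510 of all genes were higher and 956 lower in cohort 5 alone. The log2 of the summed TPM differed by 0.18.

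Leaving out 1 animal at a time, genes at an unadjusted p under 0.05 ran from 0 to 3 in HD* against controls (3 without HD* replicate 4), from 0 to 1 in LD* against controls, from 0 to 3 in HD* against LD* (3 without LD* replicate 5) and from 1, without LD* replicate 2, to 9, without HD* replicate 3, for intake. In VHD against HD adjusted calls ran from 3 to 16 and the median from 0.015, without HD* replicate 4, to 0.13, without HD* replicate 8. Adjusted calls stayed at 0 in the other comparisons with animals left out. The shares of all genes in the fits with an animal left out are not given here.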
